A study of Homo sapiens with 18 samples.

Results

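CXCL9, CXCL10 and CXCL11 are small secreted chemokines that share the receptor CXCR3, and CCL5 is a chemokine of another receptor group. These 4 genes were chosen by name, because interferon induces them and because earlier results of these data showed a rise at 12 h and a decline at 48 h. Of the 4, 3 had a row that could be matched to their symbol among 16472 genes: CXCL9 (ENSG00000138755), CXCL10 (ENSG00000169245) and CXCL11 (ENSG00000169248). CCL5 was not analysed here. CXCL10 and CXCL11 were 2 of the 13280 genes tested, and CXCL9, which reached 1 RPKM in only 2 libraries, stayed under the filter for tests.

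Type I interferon binds the IFNAR1 and IFNAR2 receptor chains and, through the kinases JAK1 and TYK2, activates a complex that includes STAT2 and IRF9 and binds interferon-stimulated response elements (ISREs) in DNA. Chemokine genes of the CXCR3 group are read out by this pathway together with NF-kB, and their mRNAs are known to be short-lived. In skin, keratinocytes secrete these chemokines, which draw CXCR3-bearing T cells and natural killer cells into the epidermis. SP100 is a protein of PML nuclear bodies and is itself induced by interferon.

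RNA sequencing was done on NIKS cells, an established line of human keratinocytes that had become immortal spontaneously, grown over mouse J2/3T3 fibroblasts that had been irradiated. The 6 groups of 3 biological replicates were SP100 wild type (WT) or SP100 knockout (KO) cells, each untreated (0 h) or kept for 12 or 48 h with human interferon alpha 2a at 25 ng/mL. Column names give 1 line per genotype (Vec2 for WT and KO5 for KO), and the loss of SP100 cannot be told apart from other differences of these lines. No untreated library at 12 or 48 h was analysed here, and hours with interferon cannot be told apart from hours in culture.

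The values are RPKM, reads scaled to the length of the gene and to the library total, and SD is the spread over the 3 libraries of a group. SP100 itself was lower in every KO library than in any WT library of the same time, at 15.1 ± 0.878 against 30.0 ± 2.01 RPKM untreated (SD, n = 3), 89.1 ± 3.60 against 160 ± 11.2 at 12 h and 59.8 ± 2.51 against 127 ± 3.78 at 48 h. Values per gene do not show whether the SP100 reads left in KO cells lie outside the altered part of the gene. All 10 keratinocyte markers were present, with a summed level of 14850 to 17710 RPKM in all 6 groups. Read totals are unknown, and the depth of the libraries relative to each other, recovered from low values, spanned a 1.51-fold range.

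CXCL9, CXCL10 and CXCL11 lie next to each other on chromosome 4, all on the minus strand. Because the 3 genes moved together, the 250 bases before each start site are shown, from RefSeq (GRCh38.p14) and in the direction of the gene. Capitals mark matches, on either strand, to the ISRE pattern (GAAA, any 2 bases, GAAA), the NF-kB consensus, the pattern TTCNNNGAA (GAS, the gamma-activated site) and TATAAA. No match overlapped another. The windows are chr4:76007510-76007759 for CXCL9, chr4:76023498-76023747 for CXCL10 and chr4:76036071-76036320 for CXCL11.
CXCL9: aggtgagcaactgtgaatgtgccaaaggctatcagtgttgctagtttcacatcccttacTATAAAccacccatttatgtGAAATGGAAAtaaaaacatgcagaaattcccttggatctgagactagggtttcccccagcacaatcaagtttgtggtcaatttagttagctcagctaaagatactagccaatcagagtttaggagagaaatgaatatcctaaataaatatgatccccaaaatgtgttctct
CXCL10: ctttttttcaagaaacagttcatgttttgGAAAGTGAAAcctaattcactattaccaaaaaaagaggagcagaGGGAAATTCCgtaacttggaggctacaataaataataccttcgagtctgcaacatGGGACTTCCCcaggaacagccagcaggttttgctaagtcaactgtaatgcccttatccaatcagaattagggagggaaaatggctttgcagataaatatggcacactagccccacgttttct
CXCL11: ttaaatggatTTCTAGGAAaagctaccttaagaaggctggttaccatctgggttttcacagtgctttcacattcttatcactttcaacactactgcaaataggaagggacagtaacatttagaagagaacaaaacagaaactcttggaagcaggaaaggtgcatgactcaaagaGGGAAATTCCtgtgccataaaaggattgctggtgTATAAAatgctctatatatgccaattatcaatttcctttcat

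The CXCL10 window holds an ISRE match, GAAAGTGAAA, from 221 to 212 bases before the start site, and the NF-kB matches GGGAAATTCC (177 to 168 bases before it) and GGGACTTCCC (122 to 113 bases before it). The CXCL9 window holds an ISRE match, GAAATGGAAA, 171 to 162 bases before its start. The CXCL11 window holds the NF-kB match GGGAAATTCC 76 to 67 bases before the start and a GAS match, TTCTAGGAA, 240 to 232 bases before it. It holds no letters that match this ISRE pattern. Among 35116 promoter windows of the same length, 3.02% held the ISRE pattern, 9.96% the NF-kB consensus, 6.57% the GAS pattern and 10.7% TATAAA. Of 23 listed interferon-stimulated genes with a window, 17 held the ISRE pattern and 6 the NF-kB consensus. A match is a description of letters, and binding was not measured.

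CXCL10 was nearly silent in untreated cells, abundant at 12 h and low again at 48 h, though still above its untreated level. Untreated WT libraries gave 0.28, 0.19 and 0.20 RPKM, and untreated KO libraries 0, 0.08 and 0.05 RPKM. After 12 h of interferon, WT libraries had 139.09, 150.61 and 132.25 RPKM, while those of KO had 135.58, 125.96 and 119.91. After 48 h, WT libraries were back at 1.79, 3.05 and 2.01 RPKM, with 2.32, 2.89 and 2.12 in KO. The 3 times do not overlap in either genotype, and within a time the WT and KO libraries overlap at 12 and 48 h but not at 0 h.

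In order of level, CXCL10 thus ran from WT at 12 h (141 ± 9.28 RPKM) and KO at 12 h (127 ± 7.90), through KO at 48 h (2.44 ± 0.400) and WT at 48 h (2.28 ± 0.673), to untreated WT (0.223 ± 0.0493) and untreated KO (0.0433 ± 0.0404; SD, n = 3 each). Neighbours in this order at 12 h, and at 48 h, lie within the spread of their libraries.

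CXCL11, the CXCR3 ligand known for the tightest binding to that receptor, had the highest level of the 3. Untreated WT libraries gave 0.23, 0.22 and 0.64 RPKM and untreated KO libraries 0.07, 0.12 and 0.11 RPKM. After 12 h, WT libraries had 332.14, 360.76 and 320.76 RPKM, while those of KO had 339.84, 315.38 and 312.29. After 48 h, WT libraries had 13.04, 18.12 and 14.53 RPKM, with 15.08, 16.87 and 16.87 in KO. Here too every library of a time stood apart from those of the other times, and the genotypes overlapped at 12 and 48 h and not at 0 h.

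CXCL9, which is known mainly as a target of interferon gamma, followed the same course at a far lower level. It was listed at 0 in all 6 untreated libraries. At 12 h it gave 0.85, 1.03 and 0.97 RPKM in WT and 0.75, 1.11 and 0.91 RPKM in KO, and at 48 h 0.28, 0.16 and 0.12 RPKM in WT and 0.31, 0.30 and 0.20 RPKM in KO. The genotypes overlapped at both times, and all 12 h libraries were above all 48 h libraries. RPKM is a level per length of gene, so the 3 genes can be set side by side: at 12 h CXCL10 was 148-fold above CXCL9 in WT and 138-fold above it in KO.

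**Figure D1:**
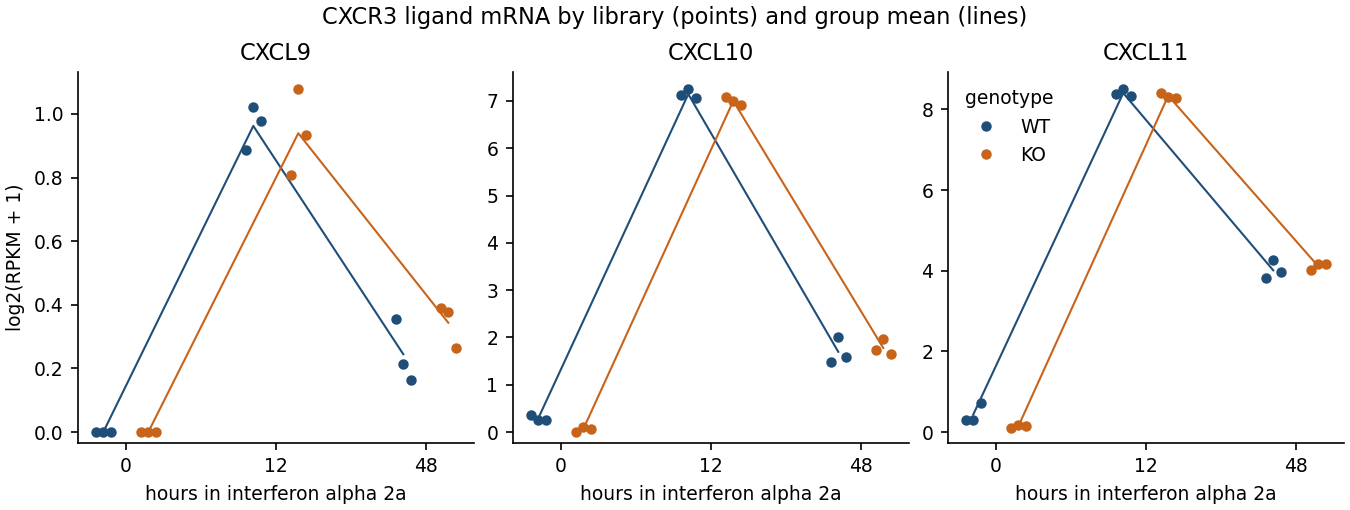
Level of CXCL9, CXCL10 and CXCL11 as log2(RPKM + 1), by hours in interferon alpha 2a (categories, not to scale), for WT (blue) and KO (orange), with 1 point for each library and lines through the group means. Each panel has its own vertical axis; all 3 genes peak at 12 h in both genotypes, and CXCL11 keeps more of its level at 48 h than CXCL10.

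The rise and decline are part of how the genes were chosen and are given as sizes only. On the log2(RPKM + 1) scale, which understates changes of low genes, CXCL10 was 6.85 higher at 12 h than untreated in WT and 6.94 higher in KO (SE 0.115). CXCL11 was 7.97 higher in WT and 8.20 higher in KO (SE 0.111), the rank 4 rise among 13280 genes in both genotypes. CXCL10 ranked 9 in WT and 8 in KO. For scale, the 12 h comparison in limma (adjusted p under 0.05) called 15.1% of all genes tested higher and 29.8% lower for WT cells, and 16% higher and 32.8% lower for KO cells. With median-of-ratios scaling of the libraries, the WT split was 2892 higher and 2717 lower and the KO split 3153 and 3040, against 2005 and 3959, and 2123 and 4362, without it.

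From 12 to 48 h, CXCL10 dropped by 5.45 (WT) and 5.22 (KO) on the same scale, and CXCL11 dropped by 4.39 (WT) and 4.23 (KO). In each genotype these were the lowest and second lowest values among all genes tested. Called lower at 48 h than at 12 h were 11.3% of genes in WT and 14% in KO. Median-of-ratios scaling moved this split as well, from 1505 lower and 3267 higher to 2415 and 2137 in WT, and from 1860 and 3678 to 2803 and 2532 in KO.

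In linear RPKM, 1.62% ± 0.490 of the 12 h level of CXCL10 was left at 48 h in WT and 1.92% ± 0.336 in KO, where the SD combines the spread of both groups (n = 3 each). For CXCL11, 4.51% ± 0.820 was left in WT and 5.05% ± 0.398 in KO. For CXCL9, 19.6% ± 8.97 was left in WT and 29.2% ± 8.72 in KO, at levels where a few reads decide the value. The share left was thus higher for CXCL11 than for CXCL10 and higher again for CXCL9, and for each gene the genotypes lie within 2 SD of each other.

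The balance between the chemokines therefore shifted with time. The ratio of CXCL11 to CXCL10 was 2.40 in WT at 12 h (2.39 to 2.43 over the libraries) and 2.54 in KO (2.5 to 2.6). At 48 h it was 6.67 in WT (5.94 to 7.28) and 6.66 in KO (5.84 to 7.96). No library at 12 h overlapped one at 48 h in this ratio. The ratio of CXCL10 to CXCL9 dropped to 12.2 in WT and 9.05 in KO at 48 h.

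Genes were taken for comparison if tested, called higher at 12 h and raised at least 2-fold on the log2(RPKM + 1) scale. That rule leaves out low genes, such as CXCL1 in WT (0.1 RPKM untreated and 1.12 at 12 h). Among the genes taken, the decline of CXCL10 and CXCL11 stood at one end. There were 218 such genes in WT, with a median of 61.7% of the 12 h level left at 48 h, and CXCL10 and CXCL11 had ranks 2 and 4 from the lowest. In KO there were 233 such genes, with a median of 57.2%, and the ranks were 3 and 4. Only 4 of the genes taken in each genotype were under 10%, and those other than CXCL10 and CXCL11 had 12 h means of at most 5.21 RPKM. In 24 genes in WT and 28 in KO the level was higher at 48 h than at 12 h.

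The 30 listed interferon-stimulated genes, antiviral effectors and sensors such as IFIT1, MX1 and ISG15, all rose at 12 h in both genotypes. Their share left at 48 h ran from 17.9% (ISG20, an exonuclease) through a median of 66.1% to 237% (BST2, which tethers virions) in WT. In KO it ran from 11.7% (GBP4, a GTPase) through 62.3% to 281% (BST2). All these values lie above those of CXCL10 and CXCL11, which were chosen for their decline, so the contrast is a description.

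**Figure D2:**
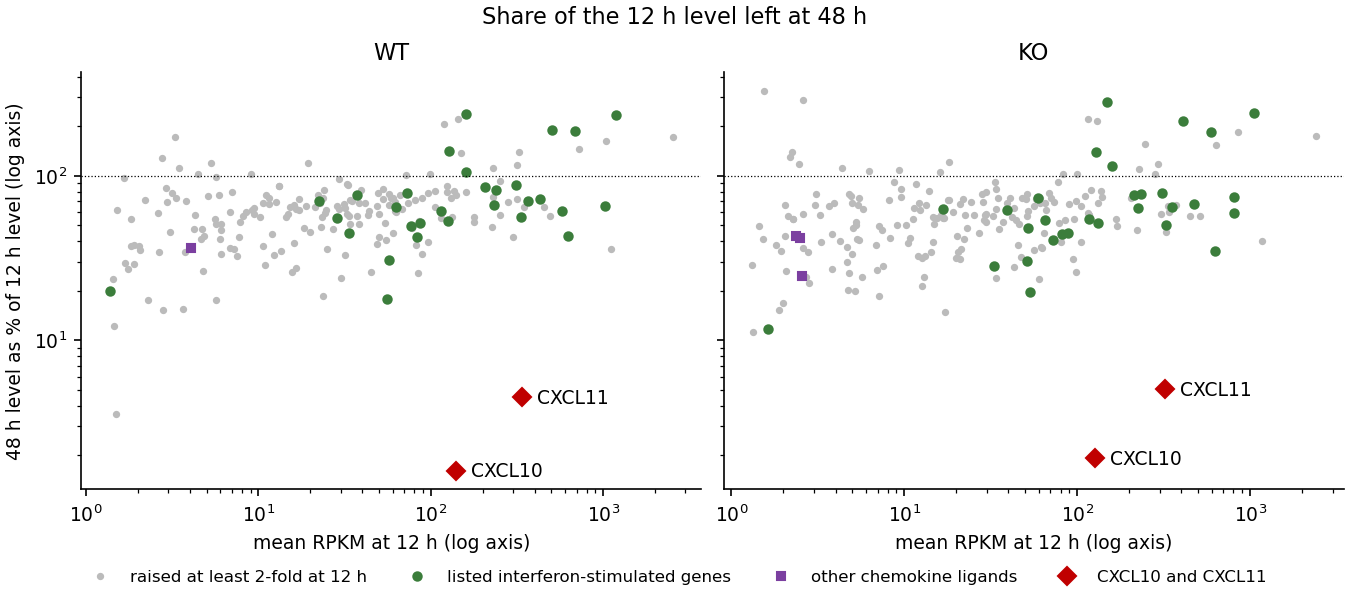
Mean level at 48 h as a percentage of the mean level at 12 h, against the mean RPKM at 12 h. Both axes are log axes, with WT on the left and KO on the right. The genes shown were called higher at 12 h and raised at least 2-fold on the log2(RPKM + 1) scale. The dotted line marks 100%. CXCL10 (1.62% in WT, 1.92% in KO) and CXCL11 (4.51% and 5.05%) lie below every listed interferon-stimulated gene; 1 gene in WT and 2 in KO with 0% left cannot be drawn on a log axis.

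Whether the loss of SP100 changed these chemokines was not used in choosing them, so KO was tested against WT at each time, in limma with Benjamini-Hochberg adjustment over all 13280 genes. None of the 2 tested chemokines was called at 0, 12 or 48 h, where 4.89%, 3.62% and 4.19% of all genes were called. At an unadjusted p under 0.05, CXCL11 passed at 0 h and CXCL10 at no time.

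At 12 h, CXCL10 differed by -0.14 on the log2 scale (KO minus WT; 95% interval -0.388 to 0.099, adjusted p = 0.581), and CXCL11 by -0.07 (-0.303 to 0.17, adjusted p = 0.83). At 48 h CXCL10 differed by 0.08 (-0.162 to 0.325, adjusted p = 0.8) and CXCL11 by 0.10 (-0.136 to 0.336, adjusted p = 0.736). As folds, the intervals for CXCL10 are 0.764 to 1.07 at 12 h and 0.894 to 1.25 at 48 h. For CXCL11 they are 0.811 to 1.13 and 0.91 to 1.26. Differences of those sizes remain possible. The sign for CXCL10 at 48 h rests on single libraries: it was -0.03 without WT replicate 1 and -0.01 without KO replicate 2.

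In untreated cells all 3 KO libraries were below all 3 WT libraries for both CXCL10 and CXCL11. Groups failed to overlap in this way in 23.6% of all genes tested, and with KO lower in 8.85%. The difference was -0.23 for CXCL10 (interval -0.473 to 0.014, adjusted p = 0.308) and -0.30 for CXCL11 (-0.532 to -0.06, adjusted p = 0.161). The call depended on the pseudocount: with 0.1 RPKM added in place of 1, the differences were -1.20 for CXCL10 (SE 0.206, adjusted p = 0.00216) and -1.10 for CXCL11 (SE 0.227, adjusted p = 0.0086). All these untreated values are under 1 RPKM, and in CXCL10 they include 0.05 RPKM. If reads were counted whole, which is not known, 1 read could be worth at most 0.05 RPKM there. For CXCL11, WT replicate 3 (0.64 RPKM) weighs on the size, and without it the difference was -0.16.

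For comparison, the listed interferon-stimulated genes included 11 of 30 that were called lower without interferon in KO than in WT, and 2 called higher, where 2.07% of all genes were called lower and 2.82% higher. Their median difference was -0.073, against 0.02 over all genes. IFIT1, which binds viral RNA, had 4.32 ± 0.723 RPKM in WT without interferon, against 0.953 ± 0.231 in KO (limma, adjusted p = 1.43e-08), and ISG15, a ubiquitin-like modifier, had 15.9 ± 2.46 against 5.64 ± 1.16 RPKM (limma, adjusted p = 2.16e-06).

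**Figure D3:**
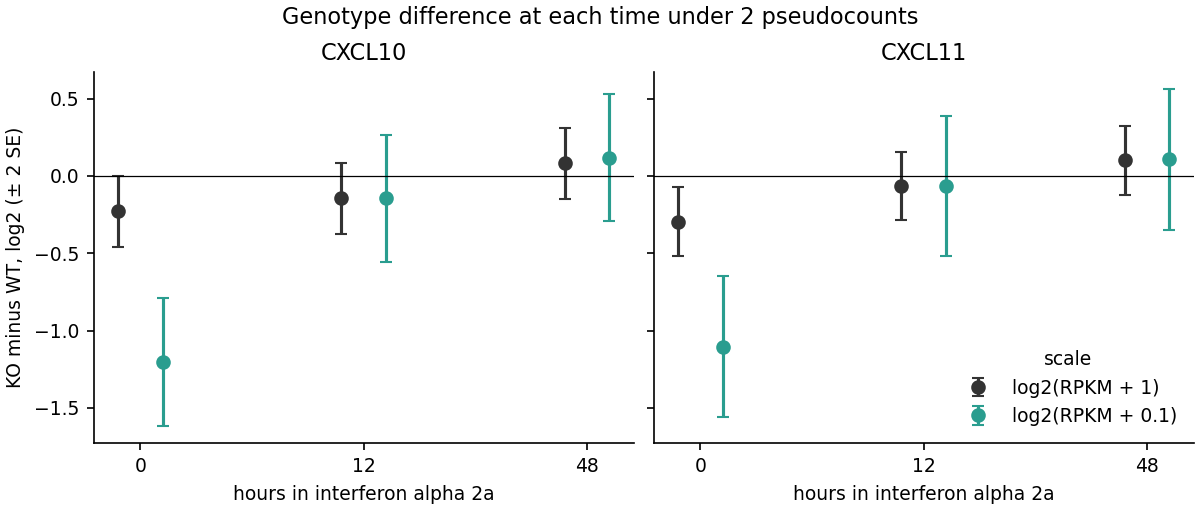
Difference between KO and WT (log2, KO minus WT) for CXCL10 and CXCL11 at 0, 12 and 48 h in interferon, with bars of 2 SE, computed on log2(RPKM + 1) (grey) and log2(RPKM + 0.1) (green). The 12 and 48 h values lie near 0 on both scales, and the untreated values move from -0.23 and -0.30 to -1.20 and -1.10.

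The interaction tests ask whether the change with interferon differed between the genotypes. For the 12 h rise it was 0.09 in CXCL10 (adjusted p = 0.995) and 0.23 in CXCL11 (adjusted p = 0.94), both in the direction of a larger rise in KO. For the change from 0 to 48 h the interaction was 0.31 in CXCL10 (adjusted p = 0.816) and 0.40 in CXCL11 (adjusted p = 0.76, and the one value of these 6 under 0.05 before adjustment). For the step from 12 to 48 h the interaction was 0.23 (adjusted p = 0.842) and 0.17 (adjusted p = 0.874). None of the 2 was called in limma in any of these, where 0.0753%, 0.0828% and 0% of all genes were called. At an unadjusted p under 0.05 the last comparison had 904 genes. Of the 30 listed interferon-stimulated genes, 8 were called in the 12 h interaction, all toward a larger rise in KO. A rise is counted from the untreated level, and a larger rise is not a higher level at 12 h. For CXCL10 and CXCL11 the 12 h differences were -0.14 and -0.07. Levels of listed genes at 12 h went both ways, in WT and KO: 627 and 628 RPKM for IFIT1, 1030 and 807 for ISG15, and 580 and 808 for MX1. In the 48 h interaction 8 of the 30 were called higher and 2 lower, where 0.0678% and 0.0151% of all genes were. With a pseudocount of 0.1 the interactions at 12 h were 1.06 (adjusted p = 0.497) and 1.04 (adjusted p = 0.673), again without a call.

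Other chemokine ligands changed less. Of 44 listed, 10 were in the table and 8 were tested. In WT cells 4 of them rose at 12 h and 1 fell, while in KO cells 5 rose and 1 fell (5 and 1 in both with median-of-ratios scaling). The shares over all genes were 15.1% higher and 29.8% lower in WT, and 16% and 32.8% in KO, and the median changes of the 8 were 0.65 and 0.56. CXCL1, CXCL3 and CXCL8, which bind CXCR2 and draw neutrophils, and CXCL16, the ligand of CXCR6, rose in both genotypes. CXCL2 was higher by 0.51 in KO (limma, adjusted p = 0.0425) and by 0.43 in WT (adjusted p = 0.0882, and called with median-of-ratios scaling), and its interaction was not called (adjusted p = 0.995). CXCL3 went from 1.49 ± 1.02 RPKM untreated to 4.05 ± 1.32 at 12 h in WT and from 0.560 ± 0.0608 to 2.36 ± 0.430 in KO.

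By 48 h the 4 WT risers were not called against untreated cells in limma (adjusted p = 0.161 for CXCL1, 0.929 for CXCL3, 0.397 for CXCL8 and 0.36 for CXCL16). CXCL1 and CXCL3 fell again from 12 to 48 h in both genotypes (WT 0.62 and 1.01, KO 1.13 and 0.73 on the log2 scale), as did CXCL8 (WT 0.66, KO 0.75). CXCL16 fell in WT, by 0.61 (limma, adjusted p = 0.00834). Its change of -0.15 in KO was not called (limma, adjusted p = 0.486), nor was the interaction (limma, adjusted p = 0.75). In WT, 4 of the 8 fell and 2 rose over that step (4 and 1 with median-of-ratios scaling), and in KO 3 fell and 1 rose. Over all genes 11.3% were called lower and 24.6% higher in WT, and 14% and 27.7% in KO. The CXCL8 fall in WT was not called without WT 48 h replicate 2, and the CXCL3 fall in KO was not called without KO 12 h replicate 3 or KO 48 h replicate 3.

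CXCL14, a chemokine made by resting epithelium, ran the other way. It stood at 24.4 ± 3.04 RPKM in untreated WT cells, 7.53 ± 0.795 at 12 h and 16.1 ± 3.39 at 48 h, and at 27.6 ± 2.02, 5.98 ± 0.633 and 15.2 ± 0.971 RPKM in KO. Its log2 level fell by 1.57 (WT) and by 2.04 (KO) at 12 h and rose by 0.985 and 1.217 from 12 to 48 h. At 48 h it was still lower than in untreated cells, by 0.58 and 0.82. CXCL14 was thus the most abundant chemokine of untreated cells in the table, and CXCL11 that of cells at 12 h.

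Between genotypes, CXCL1 was higher in KO at 12 h, at 2.55 ± 0.214 against 1.12 ± 0.147 RPKM (log2 difference 0.74, limma, adjusted p = 0.0074, and not called with a pseudocount of 0.1). The other 7 ligands tested were not called between genotypes at 0, 12 or 48 h in limma.

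Of 25 listed receptor and processing genes, 4 were in the table and 3 were tested. CXCR3 and DPP4, a protease that trims these chemokines, were not analysed here. ACKR3, a scavenging receptor that binds CXCL11 and CXCL12, rose at 12 h and fell by 48 h: it stood at 0.5 ± 0.176, 2.03 ± 0.412 and 0.763 ± 0.293 RPKM in WT and at 0.383 ± 0.179, 1.08 ± 0.0907 and 0.200 ± 0.0794 in KO. The rise was 1.01 in WT and 0.60 in KO, and the fall 0.79 and 0.80. The interaction for the ACKR3 rise was not called (limma, adjusted p = 0.894), nor was KO against WT at 12 h (limma, adjusted p = 0.0711). The syndecans, cell-surface proteoglycans that hold chemokines, moved in opposite directions at 12 h: SDC1 rose by 0.35 in WT and 0.39 in KO, and SDC4 fell by 0.43 in both.

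**Figure D4:**
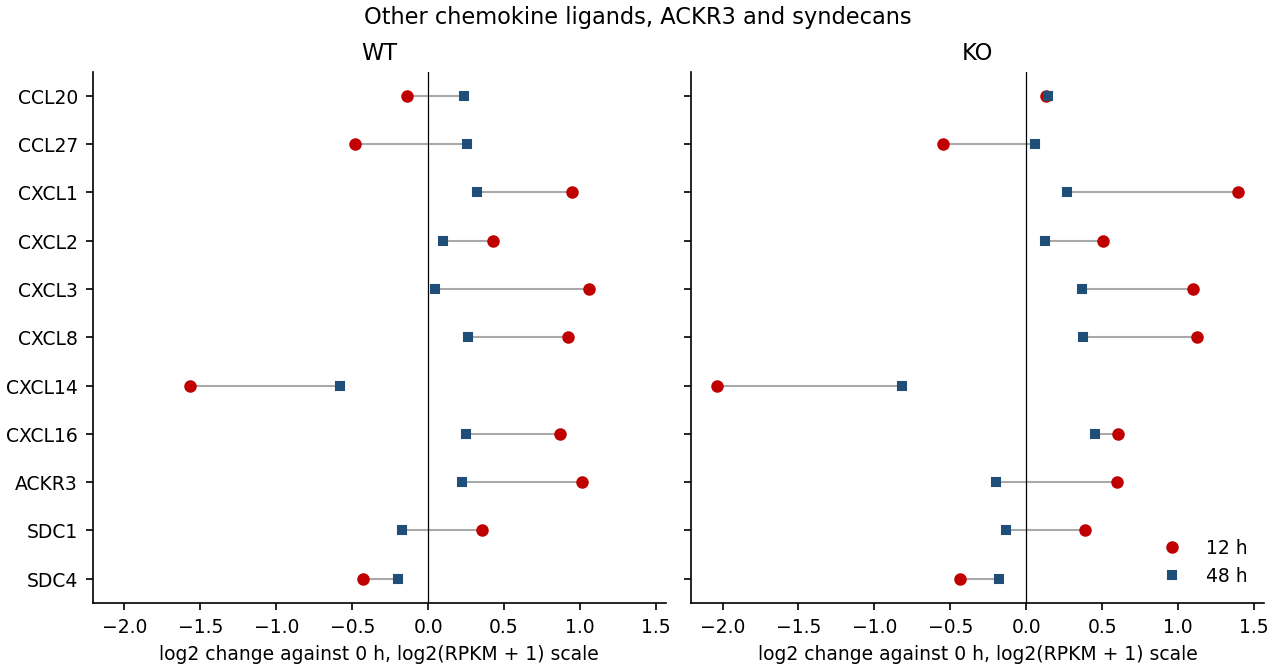
Change against untreated cells, on the log2(RPKM + 1) scale, at 12 h (red circles) and 48 h (blue squares) for the 8 other chemokine ligands tested, ACKR3, SDC1 and SDC4, in WT (left) and KO (right). CXCL1, CXCL3 and CXCL8 lie to the right at 12 h and nearer to 0 at 48 h, and CXCL14 lies to the left at both times.

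IRF9, which carries the interferon signal to DNA, kept its 12 h level at 48 h, when CXCL10 and CXCL11 had dropped. Of 26 listed signalling genes and transcription factors, 24 were tested: WT cells had 10 that rose at 12 h and 2 that fell, against 15.1% higher and 29.8% lower over all genes, and KO cells 11 and 3, against 16% and 32.8%. IRF9 stood at 6.12 ± 0.271, 72.1 ± 1.10 and 72.6 ± 4.38 RPKM at 0, 12 and 48 h in WT and at 4.01 ± 1.04, 77.3 ± 6.62 and 70.8 ± 5.41 in KO.

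STAT2, at 58.5 ± 2.6 RPKM at 12 h and 42.6 ± 1.26 at 48 h in WT, fell by 0.45 over that step and stayed above its untreated 10.8 ± 1.45. At 48 h, 7 of the 24 were still higher than untreated in each genotype, where 6.52% of all genes were called higher in WT and 5.9% in KO.

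Other genes of this list declined as well. From 12 to 48 h, 10 of the 24 fell in each genotype, where 11.3% of all genes did in WT and 14% in KO. IRF1, a factor that also binds ISREs, went from 24.6 ± 0.879 to 15.2 ± 0.725 RPKM in WT and from 22.4 ± 0.741 to 13.0 ± 0.925 in KO. BATF2 went from 7.69 ± 0.0586 to 3.29 ± 0.443 RPKM in WT and from 8.22 ± 0.349 to 3.45 ± 0.207 in KO. TNFAIP3, an NF-kB target that dampens NF-kB, fell by 0.52 (WT) and 0.98 (KO), and NFKBIA, which encodes the NF-kB inhibitor, fell by 0.34 and 0.48.

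Of the NF-kB subunit genes, NFKB1 and RELA were named after their values were seen. NFKB1 was at 22.1 ± 0.371, 23.0 ± 1.87 and 20.1 ± 0.804 RPKM over the 3 times in WT, and fell by 0.19 over the last step. RELA was at 24.4 ± 1.27, 23.9 ± 1.99 and 21.6 ± 2.03 RPKM in WT, with no call there, and rose by 0.23 at 12 h in KO. IRF7, a factor that amplifies interferon production, was the one gene of the list called higher in KO at 12 h, at 52.2 ± 3.01 against 28.4 ± 1.57 RPKM (log2 difference 0.86, limma, adjusted p = 0.000263). IRF9 was lower in untreated KO cells, by 0.53 on the log2 scale (limma, adjusted p = 0.0109), and that call was lost when only the untreated libraries were fitted.

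Of 12 feedback inhibitors, 11 were tested. USP18, which blocks the receptor chain IFNAR2, SAMHD1 and TRIM21 rose at 12 h in both genotypes and were still up at 48 h. USP18 stood at 1.3 ± 0.0529, 76.4 ± 2.80 and 38.0 ± 1.16 RPKM in WT and at 1.87 ± 0.146, 81.1 ± 2.72 and 36.2 ± 0.631 in KO. At 12 h the WT cells had 3 of the 11 higher and 5 lower (3 and 2 with median-of-ratios scaling), and the KO cells 3 higher and 3 lower (4 and 1). The shares over all genes were 15.1% higher and 29.8% lower in WT, and 16% and 32.8% in KO. SOCS1, another inhibitor, was too low to test, at 0.730 ± 0.203 RPKM at 12 h in WT and 0.530 ± 0.0436 in KO.

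Of 12 regulators of short-lived mRNA, all tested, 1 rose and 2 fell at 12 h in each genotype, a smaller share each way than the 15.1% and 29.8% of all genes in WT and the 16% and 32.8% in KO. With median-of-ratios scaling the KO counts were 3 and 0. ZFP36 and ZFP36L2 encode proteins that bind AU-rich elements and speed mRNA decay. ZFP36L2 fell at 12 h, by 0.31 in WT and 0.19 in KO, and then rose to 89.9 ± 7.10 RPKM in WT and 82.3 ± 6.32 in KO at 48 h, from 58.2 ± 0.828 and 56.8 ± 0.721 at 12 h. It was also higher at 48 h than in untreated cells, by 0.31 and 0.33. ZFP36 fell at 12 h by 0.43 in WT and by 0.32 in KO. With median-of-ratios scaling the 12 h falls of ZFP36 and ZFP36L2 were called in WT and not in KO. KHSRP went the other way, rising by 0.18 in WT and 0.14 in KO at 12 h. From 12 to 48 h it fell by 0.15 and 0.13. Whether any of these genes acted on the chemokine mRNAs was not tested.

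**Figure D5:**
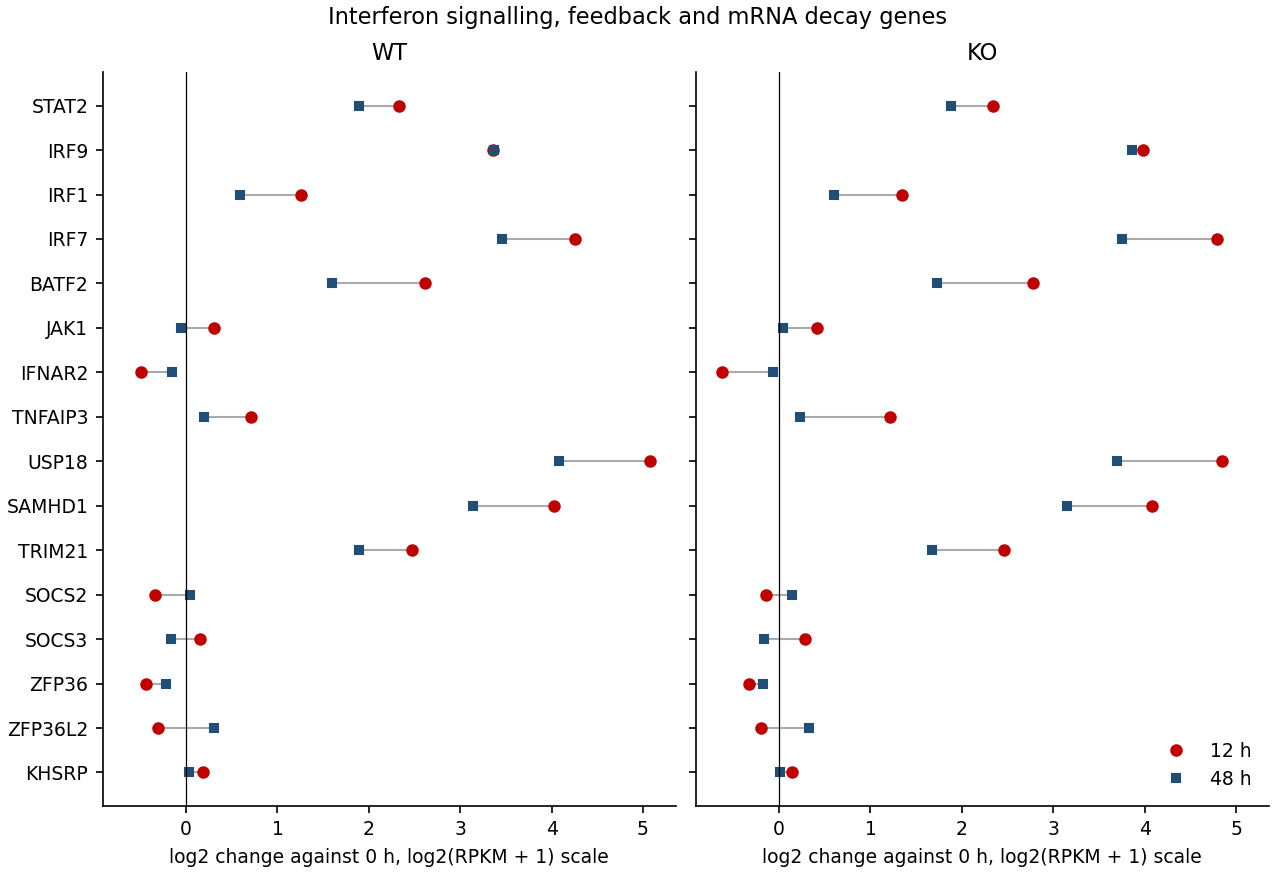
Change against untreated cells, on the log2(RPKM + 1) scale, at 12 h (red circles) and 48 h (blue squares) for named genes of interferon signalling, its feedback inhibitors and mRNA decay, in WT (left) and KO (right). IRF9 holds nearly the same position at both times, IRF1, IRF7, BATF2 and USP18 move back toward 0, and ZFP36L2 crosses from below 0 to above it.

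Of 20 listed interferon and inflammatory cytokine genes, 9 were in the table and 4 were tested. IFNB1, IFNG, TNF and IL6 were not analysed here. TNFSF10, the death ligand TRAIL, was the one riser at 12 h, from 4.79 ± 0.464 to 50.2 ± 1.76 RPKM in WT and from 5.45 ± 0.993 to 56.2 ± 1.25 in KO, and it had fallen to 21.3 ± 0.976 and 20.0 ± 0.564 at 48 h. IL1B and IL18 fell at 12 h in both genotypes.

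The genes whose level followed the mean of CXCL10 and CXCL11 most closely over the 18 libraries were NT5C3A (Pearson r = 0.994), MYD88 (0.993), ISG20 (0.992), CNP (0.989) and VSNL1 (0.986), then KRT75, DNAJA1, KRT6A, MMP13 and HK2 (0.985 to 0.981). The libraries fall into clusters by time, so r mostly says that these genes also peaked at 12 h. They kept more of their peak than CXCL10 and CXCL11: NT5C3A, a nucleotidase, kept 33.7% of its 12 h level at 48 h in WT and 31.3% in KO. MYD88, an adaptor of Toll-like and interleukin 1 receptors, kept 40.5% and 37.0%. The lowest shares among the 10 were those of ISG20 (17.9% and 19.7%) and MMP13 (18.7% and 14.8%), a collagenase that went from 0.1 ± 0.02 to 23.6 ± 1.12 RPKM at 12 h in WT.

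The neighbours of the chemokine cluster on chromosome 4 changed far less. ART3 overlaps CXCL10 and CXCL11 on the other strand in GENCODE release 29. AC112719.2 overlaps CXCL9 on the other strand there, and AC112719.1 overlaps CXCL11 on the same strand, where strand would not separate their reads. ART3 rose by 0.85 in WT and 1.00 in KO at 12 h, to 1.43 ± 0.968 and 1.45 ± 0.471 RPKM. The libraries were stranded, but whether strand was used in counting is not given in the sources used here, so reads of ART3 and of the chemokines cannot be told apart where the genes overlap. SDAD1 rose by 0.42 in both genotypes and SCARB2 by 0.71 and 0.67 at 12 h, and NAAA and FAM47E were not called. NUP54 rose by 0.18 in KO (limma, adjusted p = 0.00173) and, with median-of-ratios scaling, in WT too. PPEF2 was not analysed here.

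Markers of other cells were checked because leukocytes and fibroblasts can also make these chemokines. Of 20 leukocyte markers, 4 were in the table (CD3D, CD14, CD68 and LAPTM5), and PTPRC and CD3E, which define leukocytes and T cells, were not analysed here. Their summed level was 37.5 to 39.1 RPKM in untreated WT, 60.7 to 66.3 at 12 h and 43.9 to 48.6 at 48 h, and 30.3 to 32.0, 49.8 to 57.2 and 41.2 to 45.9 RPKM in KO. This sum moves with the chemokines across the times, and it is lower in untreated KO than in untreated WT cells. It moved through CD68, a lysosomal protein found in many cell types, which went from 19.5 ± 0.786 to 52.9 ± 3.36 RPKM at 12 h in WT, while CD14 went from 5.09 ± 0.849 to 2.40 ± 0.249 and LAPTM5 from 13.2 ± 0.258 to 7.34 ± 0.202. None of the 4 was at 0 in a whole group, and CD3D stayed under 1 RPKM. The part of these genes in the chemokine values was not tested.

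Of 10 fibroblast markers 4 were in the table, with a sum of 6.21 to 9.48 RPKM over all libraries. Of 6 melanocyte markers 2 were in the table, with a sum of at most 2.34 RPKM. Endothelial markers were not analysed here. In such bulk samples, fewer cells that make a chemokine and less of its mRNA in each cell cannot be told apart.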

How the data were processed

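Gene expression in 18 libraries was deposited by the authors as RPKM values per Ensembl gene, and no other unit was used. Cutadapt, STAR 2.6.1, RSEM 1.3.0, limma 3.50.3 and the build hg19 are listed, per the submitters' processing notes. The annotation, gene filter and use of strand are not given in the sources used here. Of 16472 gene IDs, 14576 were matched to a symbol.

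The 13280 genes that reached 1 RPKM in 3 or more libraries were tested on log2(RPKM + 1) with limma 3.58.1 in R 4.3.3, in a model of 6 group means with a mean trend of the variances. Benjamini-Hochberg adjustment covered all of these genes, and an adjusted p under 0.05 was called. The fit was tested on simulated data. P-values measure the spread between replicates that the labels call biological. Relative depth came from 640 genes with low values, and 100.0% of the pairs of libraries were within 3% of the fit.

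The members, gene lists and markers were chosen with earlier results of these data known. Beyond the members and SP100, up to 6 genes per list and comparison were named by size among called genes, with CXCR3, DPP4 and ACKR3 always, genes with an interaction call, the 10 genes most correlated with the members and the 3 nearest protein-coding genes on each side. Promoter windows came from RefSeq (GRCh38.p14), where 3 of the 4 members had an entry. Alternatives were the pseudocount (0.1), the filter (none, or a mean of 5 RPKM or more), scaling by the median of ratios, the libraries of a comparison alone, variances without a trend, a replicate block and leaving out each library. Some listed genes are not reported here.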

Additional observations from a re-analysis of the deposited data

Results flagged for a closer look

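USP18 was the one gene of the feedback list whose change with interferon differed between the genotypes by its interaction test, and it is also 1 of the 10 listed interferon-stimulated genes called in the 48 h interaction. USP18, the feedback inhibitor, rose less from 0 to 48 h in KO than in WT, by -0.382 on the log2 scale (limma, adjusted p = 0.0426). Its call was lost in 22 of 25 alternatives, with adjusted p from 0.00532 to 0.365. USP18 was already higher in untreated KO cells, by 0.32 (limma, adjusted p = 0.000629).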

How the results depend on the processing

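Results on CXCL10, CXCL11, CXCL9 and the counts of called genes were recomputed under 648 alternatives, of which 621 were counted as unchanged. For tests of CXCL10 and CXCL11, unchanged means the same direction and call, whatever the size. With a pseudocount of 0.1 in place of 1, the CXCL10 interaction at 12 h went from 0.09 to 1.06 without a call. At 48 h it went from 0.31 to 1.32, and from 12 to 48 h from 0.23 to 0.26, also without a call. CXCL9 was under the filter for tests, so its tests had no result under that filter to compare with. They were nevertheless counted as unchanged by rule, and say nothing on stability. Genotype differences in untreated cells passed the threshold with a pseudocount of 0.1: -1.20 for CXCL10 and -1.10 for CXCL11. The CXCL10 difference at 48 h changed sign without WT 48 h replicate 1 (-0.0263) and without KO 48 h replicate 2 (-0.0096), in a range from -0.0263 to 0.2425 over single libraries left out. The cause was not tested.

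With only the libraries of a comparison in the fit, and so fewer samples, genes called between KO and WT numbered 306 at 0 h, 213 at 12 h and 250 at 48 h (650, 481 and 556 with all libraries). The interactions had 6, 3 and 1 genes, and 48 h against 0 h in KO 945 (1770 with all). Variances without a trend gave 1 gene for the 12 to 48 h interaction. Leaving out 1 library gave 381 to 660 genes at 0 h, 304 to 494 at 12 h, 6 to 11, 7 to 11 and 0 to 1 for the interactions, and 1160 to 1775 for 48 h against 0 h in KO. Counts moved by over 1.5 times without WT 0 h replicate 2 or 3 or KO 0 h replicate 1 or 2 (0 h), WT 12 h replicate 1 or 3 or KO 12 h replicate 1 (12 h), and KO 0 h replicate 1 (48 h against 0 h). For the 12 h interaction the count was 6 without WT 48 h replicate 2 or 3, KO 0 h replicate 1 or 2 or KO 12 h replicate 3. For the 48 h interaction it was 7 without WT 48 h replicate 2, and for the 12 to 48 h interaction 1 without WT 0 h replicate 1.

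Same-numbered samples of different groups did not deviate together: 2 of 45 pairs had a correlation over 0.1 (median -0.013), so the numbers give no pairing. With the number as a replicate block, 533, 394 and 465 genes were called between KO and WT at 0, 12 and 48 h, and 7, 9 and 0 in the interactions. No call on CXCL10 or CXCL11 changed. Read totals are unknown, which limits every value near 0, CXCL9 and the untreated chemokine levels above all.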
